A study of Arabidopsis thaliana with 20 samples.

Results

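XTH18, XTH19, EXPA4 and EXLA1 are 4 Arabidopsis genes of protein families linked to cell wall loosening. They were taken by gene symbol, each has 1 named probe set on the Affymetrix ATH1 array, and all 4 are among the 6962 genes tested, of 13356 genes with a named probe set. The wall of a growing plant cell is a network of cellulose microfibrils and xyloglucan chains in a pectin gel. Xyloglucan endotransglucosylase/hydrolases (XTHs) cut xyloglucan chains and rejoin or hydrolyse them, and expansins loosen the contacts between wall polysaccharides without cutting them. Expansin-like proteins such as EXLA1 share the expansin fold, but no loosening activity is established for them.

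XTH18 (AT4G30280) lies on chromosome 4 from 14825757 to 14827211 in TAIR10.1. XTH19 (AT4G30290) lies beside it from 14828712 to 14830224, 1500 bases further on with 0 annotated genes between them. EXPA4 (AT2G39700), an alpha-expansin, lies on chromosome 2 from 16543832 to 16545746. EXLA1 (AT3G45970) lies on chromosome 3 from 16896166 to 16897308, 2012 bases from its relative EXLA3, with 1 annotated gene between them. XTH18 and XTH19 are close paralogues, and how far their probe sets cross-hybridise was not tested.

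The cells were T87, a suspension culture of the Columbia accession, and the labels name no mutation or transgene in any group. Control cells stood at 22 °C in light of 80 µmol per square metre and second. Cold cells stood at 4 °C in light of 40 of the same unit for 6, 12, 24 or 36 h, so temperature, dimmer light and time in culture cannot be told apart. Cordycepin, a chain-terminating analogue of adenosine that stops transcription, was then added, and RNA was taken at 0, 0.5, 2 and 4 h of it at 22 °C and at 0, 4, 8 and 12 h in each cold series. That makes 20 arrays in 5 series of 4, with 1 array per condition and no replicates, so every error below is the scatter of single arrays about a mean or a line. The study asks how the amount and the stability of transcripts change over time in the cold, and the values are log2 of the deposited intensities.

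Array medians lay between 50.3 and 68.6 in intensity. COR15A, a cold-regulated gene, was higher in the cold by 0.87, 5.49, 6.50 and 6.32 on the log2 scale at 6, 12, 24 and 36 h. A culture without differentiated tissue should lack markers of root hairs, guard cells and other such types. Of 23 such markers only EXPA7 (root hair), FMA, also called FAMA (guard cell), and TRY (trichome) have a named probe set, and none of these 3 exceeded 4.48 on any array, against a table median of 5.94.

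XTH18, XTH19 and EXLA1 were higher in the cold before cordycepin and EXPA4 was lower. XTH18 stood at log2 5.23 at 22 °C, and at 8.69, 9.74, 9.69 and 10.03 after 6, 12, 24 and 36 h of cold. XTH18 was thus 10.99-fold higher after 6 h and 22.8-, 22.1- and 27.9-fold higher at the later times. It was above the table median on 16 of 16 cold arrays and on 0 of 4 at 22 °C, so it passed the filter on low values through the cold arrays alone.

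XTH19, which mutant studies in Arabidopsis have linked to freezing tolerance after cold acclimation, stood at log2 3.78 at 22 °C and at 5.87, 8.30, 7.65 and 7.47 in the cold. Its highest level before cordycepin came after 12 h of cold. No detection call was used here. The 22 °C value of XTH19 lies within the range of the 3 markers above, whose absence was assumed from the type of culture. No fold is therefore given against that value, and the differences of XTH19 from 22 °C on the log2 scale may be too small. XTH19 was above the table median on 15 cold arrays and on 0 arrays at 22 °C, so it too was tested only because of the cold arrays, and for both genes a difference in level was built into passing the filter.

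EXLA1 stood at log2 7.30 at 22 °C, and at 10.02, 10.56, 11.06 and 10.91 in the cold, which is 6.57-, 9.59-, 13.6- and 12.2-fold higher. EXPA4 went the other way, from 12.63 at 22 °C to 11.30, 9.98, 8.48 and 9.79. EXPA4 was thus 2.51-fold lower after 6 h, 6.30-fold after 12 h, 17.9-fold after 24 h and 7.19-fold after 36 h. At every cold duration XTH18, XTH19 and EXLA1 were at least 2-fold above 22 °C, as were 1.92% of the genes tested, and EXPA4 was at least 2-fold below, as were 0.287%. At the single durations of 6, 12, 24 and 36 h, 3.52%, 8.4%, 9.22% and 6.95% of all genes were at least 2-fold higher and 0.79%, 2.83%, 5.73% and 3.02% at least 2-fold lower. Ranked by the mean of the 4 differences among 6962 genes, XTH18 and EXLA1 held places 14 and 28 from the top, and EXPA4 held place 2 from the bottom. These places describe the genes and do not test them. The 4 genes were chosen with earlier results of these data known, and XTH18 passed the filter through the cold arrays alone.

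**Figure D1:**
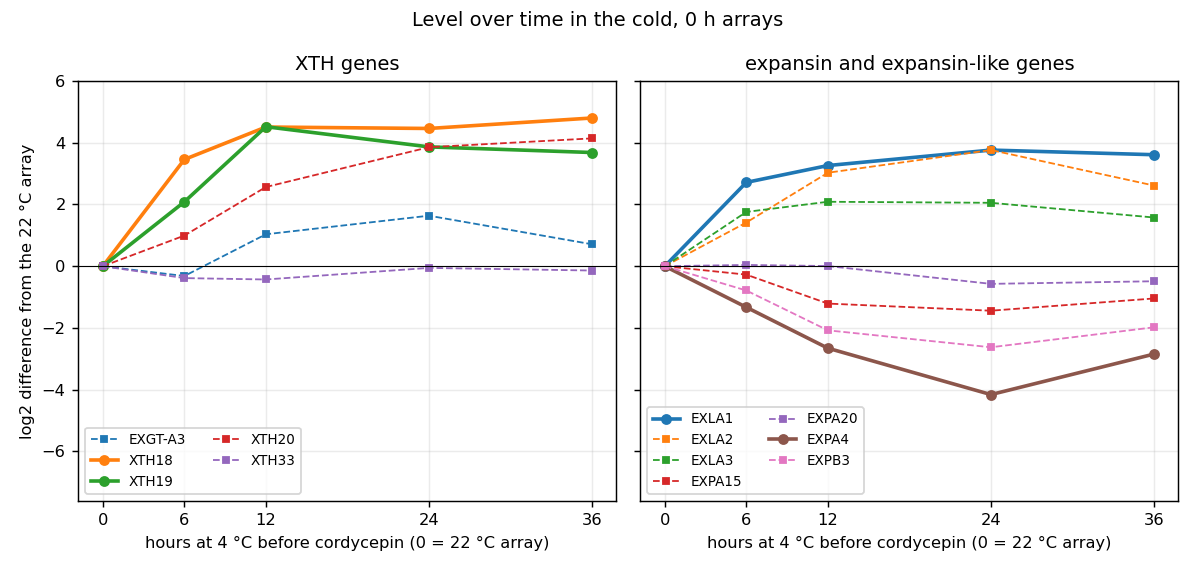
Log2 difference from the 22 °C array (y axis) against hours at 4 °C before cordycepin (x axis), for the XTH genes (left) and the expansin and expansin-like genes (right) that were tested. Each point is 1 array, thick lines mark the 4 genes described, and EXPA4 reaches its lowest point, −4.16, after 24 h of cold.

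Tested as the mean of the 4 cold arrays against the lone 22 °C array (limma, 3 residual degrees of freedom), 0 of the 4 genes passed an adjusted p of 0.05. Over all genes 0.101% passed as higher and 0% as lower. The test counts change with cold duration as error. The mean difference was 4.31 ± 0.50 (SE) for XTH18 and 3.34 ± 0.40 for EXLA1, both with a limma adjusted p of 0.0788. For XTH19 it was 3.54 ± 0.85 (limma adjusted p = 0.359), and for EXPA4 it was −2.75 ± 0.94 (limma adjusted p = 0.539). Before adjustment 4 of 4 fell under 0.05 in limma, as did 618 of all genes. Without the array of 6 h of cold, where XTH18, XTH19 and EXLA1 are lowest among the cold arrays, the limma adjusted p was 0.00488 for XTH18, 0.0104 for EXLA1 and 0.0197 for XTH19. Centring each array on its median gave XTH18 a limma adjusted p of 0.0433. Since XTH18 and XTH19 passed the filter through the cold arrays alone, their values here describe them and do not test them.

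A line through the 4 arrays of each series gives a second estimate of the starting level, with an error from all 20 arrays (limma, 10 residual degrees of freedom). That error is the scatter of arrays about their lines and not that between replicates. The estimate also takes the change after cordycepin as linear. Against 22 °C, XTH18 rose by 3.74, 4.70, 4.66 and 5.07 at 6, 12, 24 and 36 h (SE 0.22). XTH19 rose by 2.54, 4.78, 4.21 and 4.25 (SE 0.26), and EXLA1 by 3.10, 3.67, 4.08 and 4.01 (SE 0.27). EXPA4 was lower, by −1.08, −2.28, −3.86 and −2.40 (SE 0.30).

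All 4 genes passed at all 4 durations in limma. XTH18 and XTH19 had passed the filter on low values through the cold arrays alone, so their calls describe them and do not test a difference. Among all genes tested, 8.59% passed as higher and 8.1% as lower at 6 h, 21.5% and 32.3% at 12 h, 24.8% and 34.8% at 24 h, and 20.4% and 30.9% at 36 h. The least certain of these calls was EXPA4 at 6 h, with a limma adjusted p of 0.0224. It was lost with arrays centred on reference genes (−0.91, limma adjusted p = 0.101) and without any 1 of 3 arrays, 22 °C at 0 h (0.0700), 6 h of cold at 0 h (0.144) and at 4 h (0.0652), each a limma adjusted p.

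Between neighbouring durations the genes took different courses. From 6 to 12 h XTH19 rose by 2.24 ± 0.28 and XTH18 by 0.95 ± 0.24 (limma adjusted p = 0.000143 and 0.0137), and EXPA4 fell by 1.20 ± 0.32 (limma adjusted p = 0.0183). EXLA1 had a difference of 0.57 ± 0.29 over that step (limma adjusted p = 0.181). Over this step 9.15% of all genes passed as higher and 10.1% as lower. Leaving out the 0 h array of either series took the calls of XTH18 (limma adjusted p = 0.501 without 6 h, 0.116 without 12 h) and EXPA4 (0.310 and 0.282), and reference-gene centring took that of EXPA4 (0.0746).

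After 12 h only EXPA4 moved past the threshold. It fell by a further 1.59 ± 0.32 from 12 to 24 h (limma adjusted p = 0.00984), where 4.06% of all genes passed as higher and 3.32% as lower. It then rose by 1.46 ± 0.32 from 24 to 36 h (limma adjusted p = 0.0362), where 0.689% and 0.718% passed. Both steps lean on single arrays: without the 24 h array at 0 h the limma adjusted p was 0.264 for the fall and 0.658 for the rise, and without the 12 h array at 0 h it was 0.245 for the fall. The call of the rise was lost when 9 of the 20 arrays were left out in turn, with an estimate that stayed between 1.28 and 1.83. For XTH18, XTH19 and EXLA1 the differences from 12 to 24 h were −0.04 ± 0.24, −0.57 ± 0.28 and 0.41 ± 0.29, and those from 24 to 36 h were 0.41 ± 0.24, 0.05 ± 0.28 and −0.07 ± 0.29, none past the threshold in limma.

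After cordycepin the genes separated again. Because the authors normalised the arrays to each other, a slope here is the change of a transcript relative to the others on the same arrays, and the loss of total mRNA is not in it. EXPA4 at 22 °C read log2 12.63, 11.84, 10.80 and 9.89 at 0, 0.5, 2 and 4 h, lower at each time than the one before and 6.68-fold lower by 4 h. EXLA1 at 22 °C read 7.30, 6.90, 5.61 and 5.39, a 3.76-fold fall by 4 h that was nearly complete at 2 h, when it was 3.21-fold down. Its values at 2 and 4 h lie below the table median of 5.94. How far the low end of the scale flattened this course was not tested.

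XTH18 at 22 °C read 5.23, 5.21, 4.62 and 5.17, with no order over time. XTH19 at 22 °C read 3.78, 3.37, 3.74 and 4.57, near the bottom of the array's range. Both are below the table median of 5.94 on all 4 arrays.

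**Figure D2:**
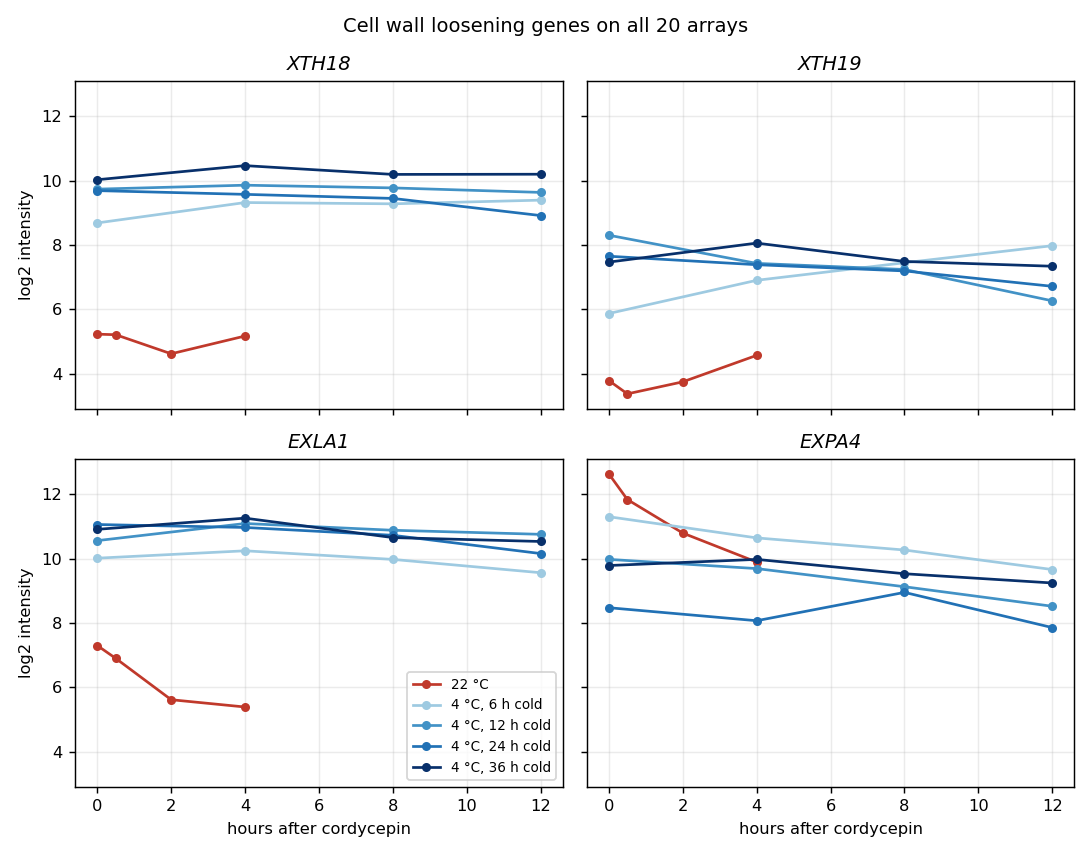
Log2 intensity (y axis) against hours after cordycepin (x axis) for each gene, 1 panel per gene, with a line through the 4 arrays of each series and 1 array per point. EXPA4 and EXLA1 fall within 4 h at 22 °C, and XTH19 rises in the series of 6 h of cold and falls in that of 12 h.

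In limma the 22 °C slope was −0.65 ± 0.09 log2 units per h for EXPA4 (adjusted p = 2.48e-05) and −0.49 ± 0.08 for EXLA1 (adjusted p = 0.000134). Both were called whichever array was left out, between −0.867 and −0.550 for EXPA4 and between −0.846 and −0.415 for EXLA1. XTH19 had a slope of 0.24 ± 0.07 (limma adjusted p = 0.0126) and XTH18 one of −0.04 ± 0.06 (limma adjusted p = 0.643). So 2 of the 4 fell and 1 rose relative to other transcripts, where 38.5% of all genes fell and 23.6% rose. With reference-gene centring the split of all genes turned, from 2682 falling and 1641 rising to 1704 and 2399.

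The rise of XTH19 at 22 °C rests on 1 array. Without the array at 4 h its slope was 0.04 (limma adjusted p = 0.824), with quantile normalization it was 0.16 (limma adjusted p = 0.0844), and with slopes anchored so that the 95th percentile of each series is 0 it was −0.04 (limma adjusted p = 0.642). Of the 6205 probe sets at or below log2 4 at 22 °C before cordycepin, as XTH19 was, 86.3% had a positive slope there, with a median of 0.0585. The part of that low-end drift in XTH19's slope was not tested. The slope of XTH18 was called in 2 of these settings. It was −0.33 without the 4 h array (limma adjusted p = 0.0196) and −0.31 when anchored (limma adjusted p = 0.000343). When anchored, 5952 of 6962 genes were called falling at 22 °C, with a median slope of −0.328 over all genes.

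At 4 °C EXPA4 again had its lowest array last in each series. In the series of 6 h of cold it read 11.30, 10.65, 10.27 and 9.66 at 0, 4, 8 and 12 h of cordycepin, and in that of 12 h it read 9.98, 9.69, 9.13 and 8.52. In the series of 24 h it read 8.48, 8.07, 8.95 and 7.86, and in that of 36 h it read 9.79, 9.98, 9.53 and 9.24. After 12 h of cordycepin EXPA4 was thus 3.12-, 2.75-, 1.53- and 1.46-fold lower, with the 8 h array of the 24 h series out of step, 0.66 above its line.

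EXLA1 in the cold differed less between arrays of a series. It read 10.02, 10.24, 9.98 and 9.56 in the series of 6 h, and 10.56, 11.09, 10.88 and 10.76 in that of 12 h. It read 11.06, 10.97, 10.73 and 10.16 in the series of 24 h, and 10.91, 11.26, 10.66 and 10.53 in that of 36 h. Its largest change over 12 h was 1.87-fold lower, in the 24 h series.

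XTH18 had a similarly narrow range. It read 8.69, 9.32, 9.28 and 9.39 in the series of 6 h of cold, and 9.74, 9.86, 9.77 and 9.63 in that of 12 h. It read 9.69, 9.57, 9.45 and 8.91 in the series of 24 h, and 10.03, 10.47, 10.19 and 10.20 in that of 36 h. Its largest change over 12 h was 1.71-fold lower, in the 24 h series.

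XTH19 had opposite courses in neighbouring series. After 6 h of cold it read 5.87, 6.90, 7.45 and 7.98, a 4.31-fold rise over 12 h in the presence of cordycepin. After 12 h of cold it read 8.30, 7.43, 7.24 and 6.26, a 4.11-fold fall. In the series of 24 h it read 7.65, 7.39, 7.19 and 6.71, and in that of 36 h it read 7.47, 8.06, 7.49 and 7.34. COR15A also went up in the series of 6 h of cold, 8.75-fold over 12 h, and differed by 1.05-fold over 12 h in that of 12 h.

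**Figure D3:**
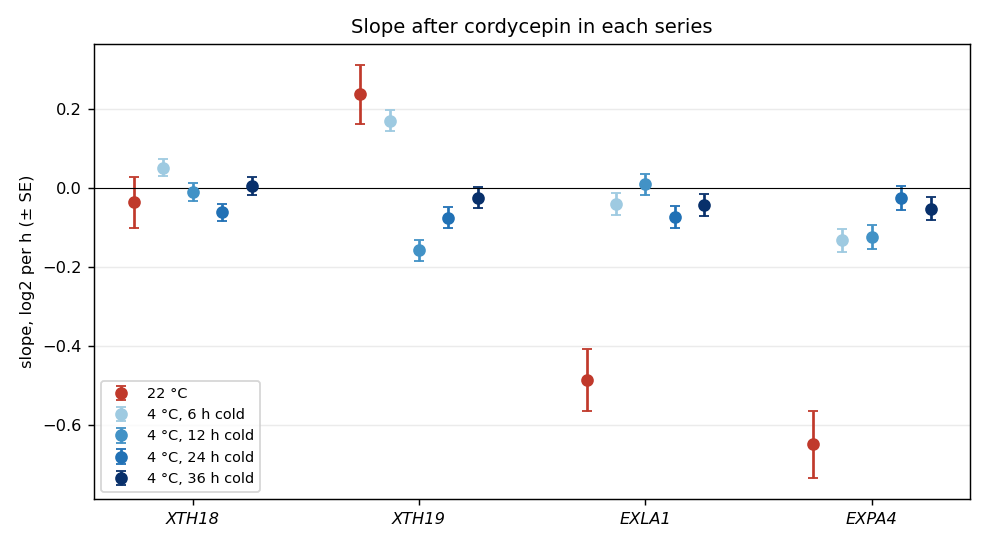
Slope after cordycepin in log2 units per h (y axis, points with bars of ± 1 SE from limma) for each gene and each of the 5 series. EXPA4 and EXLA1 lie lower at 22 °C than in any cold series, EXPA4 lies at −0.13 and −0.12 after 6 and 12 h of cold, and XTH19 lies at 0.17 after 6 h of cold and at −0.16 after 12 h.

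In the series of 6 h of cold, limma called EXPA4 (−0.13 ± 0.03 per h, adjusted p = 0.0180) and XTH19 (0.17 ± 0.03, adjusted p = 0.00347), where 4.55% of all genes rose and 3.61% fell. In that of 12 h it called EXPA4 (−0.12 ± 0.03, adjusted p = 0.0154) and XTH19 (−0.16 ± 0.03, adjusted p = 0.00466), where 11.3% rose and 7.24% fell. These calls rest on the ends of their lines. EXPA4 was not called in the series of 6 h without the array at 0 h (limma adjusted p = 0.324) or at 12 h (0.280), nor XTH19 without that at 0 h (0.203). For the series of 12 h, the limma adjusted p without the array at 0 h was 0.426 for EXPA4 and 0.402 for XTH19, and without that at 12 h it was 0.242 and 0.117. In the series of 24 and 36 h limma called 0 of the 4 genes, where 0.129% and 0.0144% of all genes rose and 1.09% and 0.244% fell. At 24 h the unadjusted p fell under 0.05 for XTH18 (0.0155), XTH19 (0.0118) and EXLA1 (0.0174), and at 36 h for 0 of the 4.

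Averaged over the 4 cold series, limma called a slope of −0.08 ± 0.02 for EXPA4 (adjusted p = 0.00151) and one of −0.04 ± 0.01 for EXLA1 (adjusted p = 0.0463), and neither XTH gene, where 21.6% of all genes rose and 16.2% fell. The call of EXLA1 was lost with no filter (limma adjusted p = 0.0559), with eBayes without trend (0.0570) and with median centring (0.0782). The 4 cold slopes differed among themselves for XTH19 (limma F = 28.9, adjusted p = 0.00385), as for 2.77% of all genes. For XTH18, EXPA4 and EXLA1 the F was 4.38, 3.19 and 1.57 (limma adjusted p = 0.165, 0.276 and 0.580), so the slopes of EXPA4 at different cold durations were not told apart. For XTH19 the difference was not called without the 6 h array at 0 h (F = 13.4, limma adjusted p = 0.0771) or without all the 0 h arrays (F = 19.5, limma adjusted p = 0.193).

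Set against 22 °C, the mean cold slope was higher by 0.57 ± 0.09 per h for EXPA4 (limma adjusted p = 9.55e-05) and by 0.45 ± 0.08 for EXLA1 (limma adjusted p = 0.000323). In each of the 4 cold series limma called both genes higher than at 22 °C, by 0.52, 0.53, 0.63 and 0.60 for EXPA4 and by 0.45, 0.50, 0.41 and 0.44 for EXLA1. XTH19 was called lower by −0.40, −0.31 and −0.26 at 12, 24 and 36 h and had −0.07 at 6 h, and XTH18 was called at no duration. With anchored slopes these calls changed over. XTH19 was then called at no duration (limma adjusted p = 0.0538, 0.402 and 0.772 at 12, 24 and 36 h). XTH18 was called higher at all 4 (0.30, 0.25, 0.21 and 0.28 per h, limma adjusted p from 0.000832 to 0.00912). Anchoring gave most genes such a call. In the mean cold slope minus 22 °C, 5541 of 6962 genes were then called higher and 99 lower, with a median of 0.280. Without the 22 °C array at 4 h XTH19 was likewise not called at 12, 24 or 36 h (limma adjusted p = 0.279, 0.529 and 0.730). Quantile normalization took its call at 36 h (limma adjusted p = 0.0729). At 6, 12, 24 and 36 h, 35.8%, 36.7%, 35.9% and 36% of all genes were called higher and 21.1%, 20.9%, 20.5% and 20.4% lower. For XTH19 the difference was −0.26 ± 0.08 (limma adjusted p = 0.00906) and for XTH18 it was 0.03 ± 0.07 (limma adjusted p = 0.686). Among all genes 37% had a higher and 21.5% a lower slope in the cold, or 2577 and 1495 genes, against 1498 and 2438 with reference-gene centring.

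The 22 °C line covers 4 h of cordycepin and each cold line 12 h. Over the first 4 h alone EXPA4 changed by −2.74 at 22 °C, and by −0.66, −0.29, −0.40 and 0.19 after 6, 12, 24 and 36 h of cold. EXLA1 changed by −1.91 at 22 °C, and by 0.23, 0.53, −0.09 and 0.35 in the cold. XTH19 changed by 0.78 at 22 °C, and by 1.03, −0.88, −0.26 and 0.59 in the cold. Slopes at 22 °C were spread more widely than in the cold. When hours were rescaled so that every series had the same spread of slopes, the difference was 0.04 for EXPA4 (limma adjusted p = 0.855) and 0.18 for EXLA1 (limma adjusted p = 0.339), and neither was called. XTH19 had a difference of −0.38 on that scale (limma adjusted p = 0.0313), but its call was lost with quantile normalization (−0.18, limma adjusted p = 0.0639) and with anchored slopes (−0.03, limma adjusted p = 0.711). XTH18 was called higher with anchored slopes (0.26, limma adjusted p = 0.00184), as were 5541 of 6962 genes, with a median of 0.280 over all genes. Without the 22 °C array at 4 h, XTH19's difference was −0.06 (limma adjusted p = 0.741) and XTH18's was 0.32 (limma adjusted p = 0.0218).

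The series overlap in time, so cells given cordycepin for the last 12 h can be set beside cells kept equally long in the cold without it. After 24 h of cold in all, XTH19 stood at 6.26 with cordycepin and 7.65 without, 2.62-fold lower, and XTH18 differed by −0.06, EXPA4 by 0.05 and EXLA1 by −0.30. After 36 h in all, all 4 genes were lower with cordycepin. EXPA4 stood at 7.86 against 9.79, 3.81-fold lower, and XTH18 at 8.91 against 10.03, 2.17-fold lower. XTH19 and EXLA1 were each lower by −0.75. With 1 array on each side there is no test; 4.04% of all genes were at least 2-fold lower with cordycepin at 24 h and 3.94% at 36 h, and the median difference of all genes was 0.0846 and 0.0232.

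**Figure D4:**
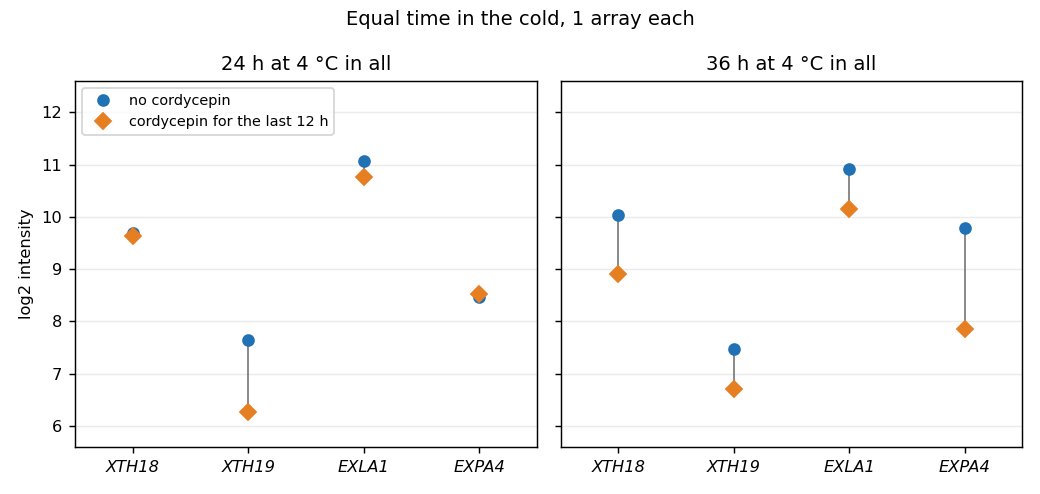
Log2 intensity (y axis) of each gene after 24 h (left) and 36 h (right) at 4 °C in all, without cordycepin (circles) and with cordycepin for the last 12 h (diamonds), 1 array per point. EXPA4 differs by 0.05 at 24 h and by −1.93 at 36 h.

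Relatives of the 4 genes were measured on the same arrays. Of 33 annotated XTH genes 10 have a named probe set and 5 passed the filter, and of 37 expansin and expansin-like genes 19 have one and 7 passed. In mean fitted starting level against 22 °C, limma called 4 of the 5 XTH genes higher and 0 lower, and 3 of the 7 expansins higher and 4 lower. Of all genes tested, 25.2% were called higher and 37.3% lower. The filter fixed much of this in advance: XTH20 and EXLA3, like XTH18 and XTH19, reached the table median on 0 of 4 arrays at 22 °C, EXLA2 reached it on 1 of 4, and EXPA15 reached it on 4 of 4 at 22 °C and on 1 of 16 in the cold. The counts are therefore a description of the genes that passed. The 3 higher were the expansin-like EXLA1, EXLA2 (3.54 ± 0.28) and EXLA3 (2.32 ± 0.17), and the 4 lower were EXPA4, EXPB3 (−2.13 ± 0.23), EXPA15 (−0.96 ± 0.15) and EXPA20 (−0.45 ± 0.12), which reference-gene centring took off the list (−0.19, limma adjusted p = 0.0785).

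XTH20, of the same subgroup as XTH18 and XTH19, differed from 22 °C by 0.99, 2.57, 3.86 and 4.14 at 6, 12, 24 and 36 h, still higher at 36 h than at 24 h. EXLA2 differed by 1.42, 3.03, 3.76 and 2.61, and EXLA3, which lies near EXLA1, by 1.76, 2.09, 2.05 and 1.58. At 22 °C the slope of EXLA2 was −0.41 ± 0.11 (limma adjusted p = 0.00502), and that of EXLA3 was 0.01 ± 0.06 (limma adjusted p = 0.909). XTH20, like XTH19, had a positive slope there, 0.23 ± 0.05 (limma adjusted p = 0.00138), so that 2 of 5 XTH genes rose and 2 fell, XTH33 and EXGT-A3 (XTH27), and 0 of 7 expansins rose and 3 fell, beside 23.6% of all genes rising and 38.5% falling. These directions depend on the scaling. With anchored slopes XTH20 had −0.04 (limma adjusted p = 0.450). With reference-gene centring the fall of EXGT-A3 was not called (limma adjusted p = 0.0743) and EXPA20 was called rising (0.14, limma adjusted p = 0.00344). XTH20 read 3.83 at 22 °C before cordycepin, among the probe sets at or below log2 4, of which 86.3% had a positive slope there. The part of that low-end drift in XTH20's slope was not tested.

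Other genes of the wall and of growth were sparsely named on the array, and their counts stand beside 25.2% of all genes called higher and 37.3% called lower. Of the xyloglucan glucan synthases of the CSLC family 4 were tested, and limma called 1 higher in mean fitted starting level, CSLC04 (1.15 ± 0.19), and 0 lower. All 3 pectin genes tested were called higher, ATPMEPCRB, a pectin methylesterase, by 2.71 ± 0.28 and PME61 by 0.93 ± 0.14. COB, which orients cellulose deposition, was the 1 cellulose gene tested and was higher by 0.64 ± 0.12. Of 3 auxin genes 1 was called lower, GH3.17, which conjugates auxin to amino acids (−0.80 ± 0.22), and 1 higher, IAA18, an auxin response repressor (0.53 ± 0.15). Wall structural proteins, touch genes and brassinosteroid genes had 0 named probe sets.

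Across the 20 arrays XTH18 correlated with XTH19 at r = 0.947 and with EXLA1 at r = 0.968, and XTH19 with EXLA1 at r = 0.879. These values describe arrays that share series and culture, and over the 16 cold arrays alone they were 0.604, 0.672 and 0.229. EXPA4 ran against the other three, with r from −0.620 to −0.568 over all arrays and from −0.337 to −0.038 over the cold ones. Of the genes tested, those most like XTH18 over the 20 arrays were AT1G05340 (r = 0.988), AT2G32190 (0.983) and COR47, a dehydrin (0.975). For XTH19 they were AT2G32190 (0.951), AT1G69890 (0.950) and AT3G55580 (0.948). For EXLA1 they were AT4G18740 (0.982), EXLA2 (0.974) and AT4G08330 (0.972). For EXPA4 they were GH9C2, a glycosyl hydrolase of the endoglucanase family (0.965), AT3G46280 (0.953) and AT5G06265 (0.953). Over the 16 cold arrays alone GH9C2, AT3G46280 and AT5G06265 had r = 0.961, 0.956 and 0.924 with EXPA4. On those arrays AT1G05340, AT2G32190 and COR47 had 0.926, 0.925 and 0.580 with XTH18. The range was 0.604 to 0.722 for the 3 genes of XTH19 and 0.785 to 0.807 for those of EXLA1.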

How the data were processed

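Total RNA of 20 samples was read on Affymetrix ATH1 arrays. The deposited intensity of each probe set was summarised by the authors with RMA in the affy package, per the labels and the submitters' processing notes, and is on a linear scale. Here log2 was taken. No column of another sample was used. Of 22810 probe sets, 13513 (59.2%) have 1 gene in the platform's table, 503 have several and 8794 are not named there; 13436 matched TAIR10.1. A probe set was kept if at least 2 of 20 arrays reached the table median, 61.39, and the brightest stood for its gene, which left 6962 genes.

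Fits were made in R 4.3.3 with limma 3.58.1 (lmFit, then eBayes with trend). The level fit used the 5 arrays at 0 h. The line fit used all 20 arrays, with 1 intercept and 1 slope per series. Two-sided p-values were adjusted over the 6962 genes by Benjamini and Hochberg's method and called at 0.05. Tables and plots used Python 3.11.15, numpy 2.4.6, pandas 2.3.3 and matplotlib 3.10.9, and the fits were tested on simulated data. The number of arrays limits the precision.

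The members, the gene lists and the alternatives were chosen with earlier results of these data known. Named are the 4 genes, up to 2 members of largest change each way of each list, the 3 genes most alike to each, and COR15A. EXPA15, EXPA20 and EXLA3 are named beyond this rule, with their values seen. Alternatives were other filters, eBayes without trend, other centrings, quantile normalization, averaging the probe sets of a gene, anchored or scaled slopes, no 0 h arrays and each array left out in turn. Their use on the fitted starting levels (apart from reference-gene centring), the single cold-minus-22 °C slopes and the F test, and the comparison at equal time in the cold, were chosen after seeing the data. The growth protocol names 12, 24 and 36 h of cold; the titles and design text also give 6 h.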

Additional observations from a re-analysis of the deposited data

Results flagged for a closer look

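The response to cordycepin differed between 4 °C and 22 °C for 3 of the 4 genes by a test of the difference itself, the slope averaged over the cold series less that at 22 °C, in log2 units per h. It was 0.57 for EXPA4 and 0.45 for EXLA1, and −0.26 for XTH19. By the same test 37% of all genes were called higher and 21.5% lower. The 22 °C slope covers 4 h of cordycepin and the cold slopes 12 h, so unlike spans are compared. With scaled slopes EXPA4 and EXLA1 were not called (limma adjusted p = 0.855 and 0.339). XTH19 was not called without the 22 °C array at 4 h (limma adjusted p = 0.741), with quantile normalization (0.0639) or with anchored slopes (0.711). Its 22 °C arrays read from 3.37 to 4.57, near the bottom of the range. Of the probe sets at or below log2 4 at 22 °C before cordycepin, 86.3% had a positive slope there. In these 3 differences the parts of temperature, light and time in culture cannot be told apart. Among the 4 cold series the slopes of XTH19 differed from each other (limma F = 28.9), with a rise after 6 h of cold and a fall after 12 h. That call was lost without the array of 6 h of cold at 0 h (limma adjusted p = 0.0771) and without all the 0 h arrays (0.193). Temperature and light were the same in these series, and cold duration and time in culture cannot be told apart.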

How the results depend on the processing

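No paired analysis was possible because every group has 1 array. Limits: no condition has replicates, the 22 °C level is a single array, slopes are relative to other transcripts on the same arrays, and XTH18 and XTH19 sit near the low end at 22 °C. Centring on reference genes moved the median 22 °C slope of all genes from −0.0519 to 0.0193, median centring moved it to 0.0232, and anchoring moved it to −0.328. Over all genes limma called 25.2% higher and 37.3% lower with intercepts of the lines, and 23.6% and 38.5% for the 22 °C slope. For the mean cold slope minus 22 °C the shares were 37% and 21.5%. With anchoring 5952 of 6962 genes were called falling at 22 °C, and 5541 were called higher in that difference. All counts below are of the 4 genes called by limma, and are to be read beside these shares. XTH18 and XTH19 passed the filter through the cold arrays alone, so their level calls against 22 °C are no test.

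For the level, 0 were called, against 1 with median centring, 4 with intercepts of the lines and 0 to 3 with each array left out in turn. For fitted starting levels against 22 °C, leaving out arrays gave 3 to 4 at 6 h and 4 to 4 at 12, 24 and 36 h; from 6 to 12 h it gave 1 to 3, from 12 to 24 h 0 to 1 and from 24 to 36 h 0 to 1. The last step's 1 call became 0 with the stricter filter, with eBayes without trend and with reference-gene centring. For the 22 °C slope leaving out arrays gave 3 to 3, with the same exchange of XTH18 for XTH19 without the 22 °C array at 4 h (limma adjusted p = 0.0196 and 0.824). For the 6 h and the 12 h series the 2 calls became 1 with the stricter filter, 1 without the 0 h arrays and 0 to 2 with arrays left out. For the 24 h series anchoring gave 3 and leaving out arrays 0 to 1, and for the 36 h series anchoring gave 2 and leaving out arrays 0 to 0. For the mean cold slope minus 22 °C the 3 calls became 1 with scaled slopes, and their number was 3 to 3 with arrays left out, though without the 22 °C array at 4 h XTH18 was called in place of XTH19 (limma adjusted p = 0.0218 and 0.741); for single cold series the numbers were 2 to 3, 3 to 3, 2 to 3 and 3 to 3. The 1 call among the cold slopes became 0 with the stricter filter, where XTH19 was not tested, and 0 without the 0 h arrays, with 0 to 1 when arrays were left out.

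Signs turned for values near 0. The 22 °C slope of XTH18 was 0.0357 with reference-gene centring, 0.0395 with median centring and 0.00411 without the 0 h arrays, and that of XTH19 was −0.0374 when anchored. XTH18's mean cold slope minus 22 °C was −0.0501, −0.0320 and −0.0377 in the same 3 settings and −1.44e-05 with scaled slopes. Its difference at 12 h was −0.0637, −0.0348 and −0.0322, at 36 h −0.0401, −0.0228 and −0.0375, and at 24 h 0.215 when anchored. XTH18's cold slope was −0.00739 at 6 h when anchored, 0.00477 at 12 h with median centring, and at 36 h −0.00441 with reference-gene centring, −0.0330 when anchored and −0.0334 without the 0 h arrays. EXLA1's 12 h slope was −0.00888, −0.0461 and −0.0421 in those 3 settings. XTH19's 6 h difference was 0.0119 with quantile normalization and 0.150 when anchored. XTH18's fitted step from 12 to 24 h was 0.0252 with median centring. With each array left out in turn, values that crossed 0 ran as follows. For XTH18 the 22 °C slope ran from −0.326 to 0.00411 and the mean cold slope minus it from −0.00734 to 0.322, with −0.0139 to 0.316 at 12 h and −0.0654 to 0.264 at 24 h. XTH18's own slope ran from −0.0281 to 0.00477 in the 12 h series and from −0.0334 to 0.0206 in the 36 h series, and its step from 12 to 24 h from −0.206 to 0.162. For EXLA1 the 12 h slope ran from −0.0421 to 0.0403, the step from 12 to 24 h from −0.0752 to 0.663 and that from 24 to 36 h from −0.329 to 0.370. For EXPA4 the 24 h slope ran from −0.0479 to 0.0596. For XTH19 the 36 h slope ran from −0.0899 to 0.00252, the 6 h difference from 22 °C from −0.174 to 0.129 and the step from 24 to 36 h from −0.196 to 0.662.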
